A study of Homo sapiens with 42 samples.

Results

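The 211 genes described here were all but silent in IMR90 lung fibroblasts given DMSO and were read in every library of the same cells given bleomycin. A row of the deposited count table was a member if it had at most 12 counts summed over the 12 IMR90 DMSO libraries and at least 3 counts in each of the 12 IMR90 bleomycin libraries. Of 28266 rows, 11717 met the first condition and 211 met both, which is 1.80% of the silent rows. The members were thus chosen by their counts in bleomycin and DMSO, and the difference between those treatments is given below as a description with no test.

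IMR90 is a strain of normal human fetal lung fibroblasts, and IMR90 ER:RAS cells carry an oestrogen receptor fusion of oncogenic RAS that 4-hydroxytamoxifen (4OHT) activates. Senescence was triggered in IMR90 by 24 h of bleomycin (50 µg/ml) and in ER:RAS by 4OHT (100 nM), with DMSO as the control in each line. From 7 days on, doxycycline (1 µg/ml, 72 h) switched on an shRNA in every group, controls included, which was either a control hairpin or COPB2 shRNA 1 or 2, aimed at a subunit of the COPI coat. RNA was collected at day 10 from 4 samples of each of the 6 IMR90 groups and 3 of each of the 6 ER:RAS groups. The labels give the replicates as numbers alone, and a legend of the study calls the replicates behind its knockdown analysis independent experiments. That legend gives n = 3 for each COPB2 shRNA in bleomycin too, where 4 samples per group are used here.

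Bleomycin breaks DNA strands and drives fibroblasts into a stable growth arrest, therapy-induced senescence, whereas RAS activation gives oncogene-induced senescence. Both states are known for a secretory programme rich in chemokines and proteases. Genes that a fibroblast does not use, such as those of neurons, leukocytes or germ cells, are normally kept silent by closed chromatin and by the lack of their activating factors.

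Library totals did not favour bleomycin: they ran from 15580424 to 19409645 counts in bleomycin and from 16199276 to 23597310 in IMR90 DMSO, and from 16465900 to 20312816 in 4OHT and 13148194 to 19502813 in ER:RAS DMSO. Levels are given in CPM, the count divided by the scaled library total and multiplied by 1e6, and a floor of 3 counts is 0.110 to 0.271 CPM in these libraries. The labels were checked on 2 genes: COPB2 stood at 33.9 to 122 CPM in the 28 knockdown libraries, below the 267 to 620 of the 14 controls, and ESR1, part of the fusion, at 1440 to 2940 CPM in ER:RAS and 0 to 0.632 in IMR90. Fibroblast markers such as collagens summed to 8110 to 20800 CPM in bleomycin and 19200 to 27300 in IMR90 DMSO.

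Promoters of 5 members are shown because they span the kinds of gene in the set: short genes for secreted signals, a gene also read in 4OHT, and very long genes of the nervous system. Each line gives the 250 bases before and 50 after the RefSeq start (GRCh38.p14), 5′ to 3′ on the gene's own strand. The capitals mark TATAAA, the TATA box, in CCL20, TGACTCA or its reverse complement, the AP-1 motif, in CXCL14 and SGPP2, and CG dinucleotides in CNTNAP2 and CTNNA2. The windows are chr2:227813592-227813891 (plus strand) for CCL20, chr5:135578942-135579241 (minus) for CXCL14, chr2:222423738-222424037 (plus) for SGPP2, chr7:146116551-146116850 (plus) for CNTNAP2 and chr2:79185127-79185426 (plus) for CTNNA2.
CCL20: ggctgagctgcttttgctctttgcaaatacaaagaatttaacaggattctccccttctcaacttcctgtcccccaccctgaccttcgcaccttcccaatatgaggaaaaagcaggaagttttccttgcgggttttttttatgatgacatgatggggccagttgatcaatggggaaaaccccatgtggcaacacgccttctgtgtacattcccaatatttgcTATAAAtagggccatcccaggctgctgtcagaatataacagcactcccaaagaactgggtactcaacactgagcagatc
CXCL14: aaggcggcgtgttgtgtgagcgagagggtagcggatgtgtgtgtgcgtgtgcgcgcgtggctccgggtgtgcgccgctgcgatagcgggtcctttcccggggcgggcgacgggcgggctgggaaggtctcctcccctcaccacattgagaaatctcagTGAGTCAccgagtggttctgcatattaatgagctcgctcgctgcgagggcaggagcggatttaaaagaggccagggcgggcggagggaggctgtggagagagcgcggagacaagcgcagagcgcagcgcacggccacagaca
SGPP2: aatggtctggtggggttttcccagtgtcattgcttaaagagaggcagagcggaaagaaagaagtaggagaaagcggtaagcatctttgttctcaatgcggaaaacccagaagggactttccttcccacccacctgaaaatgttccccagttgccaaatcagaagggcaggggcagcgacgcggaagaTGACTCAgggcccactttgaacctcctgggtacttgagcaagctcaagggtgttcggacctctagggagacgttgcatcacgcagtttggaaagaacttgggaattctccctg
CNTNAP2: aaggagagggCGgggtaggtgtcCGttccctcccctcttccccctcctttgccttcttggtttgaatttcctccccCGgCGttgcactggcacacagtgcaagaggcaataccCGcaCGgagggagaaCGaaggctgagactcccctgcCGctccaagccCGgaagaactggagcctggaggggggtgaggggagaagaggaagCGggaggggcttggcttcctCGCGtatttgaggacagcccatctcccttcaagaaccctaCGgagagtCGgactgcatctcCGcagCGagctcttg
CTNNA2: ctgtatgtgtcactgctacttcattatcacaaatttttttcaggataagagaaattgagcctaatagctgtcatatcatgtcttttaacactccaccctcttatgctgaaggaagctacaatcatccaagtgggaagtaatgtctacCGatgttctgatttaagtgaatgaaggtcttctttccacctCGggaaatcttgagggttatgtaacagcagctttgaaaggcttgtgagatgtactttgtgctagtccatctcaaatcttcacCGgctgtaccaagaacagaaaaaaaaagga

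The members were low even in bleomycin. Their median mean level was 0.533 CPM over the 12 bleomycin libraries and 0.0175 CPM over the 12 IMR90 DMSO libraries, and 186 of 211 had a mean under 1 CPM in bleomycin. A member had a median of 122 counts over the 12 bleomycin libraries (range 46 to 3121) and a median of 4 over the 12 DMSO libraries, and 31 members had no DMSO count at all. Summed over members, the bleomycin libraries held 114 to 251 CPM and the DMSO libraries 3.43 to 5.27. In ER:RAS cells the sums were 8.07 to 9.63 CPM in DMSO and 578 to 1190 in 4OHT, of which CST1 alone made up 66.5%.

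**Figure D1:**
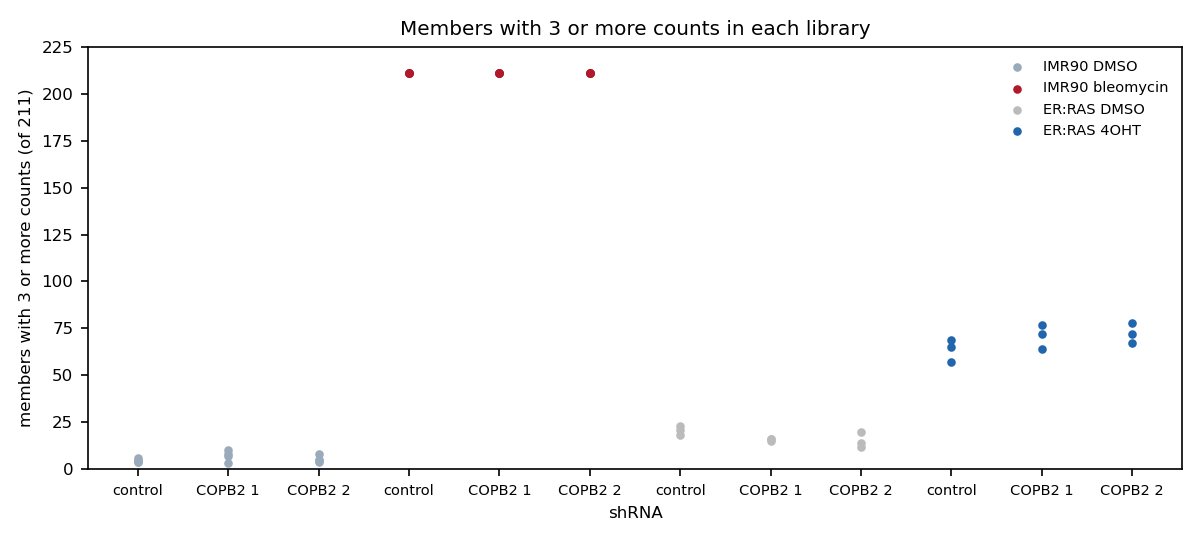
Number of the 211 members with 3 or more counts (vertical axis) in each of the 42 libraries, 1 point per library, by cell line, treatment and shRNA (horizontal axis); the rule fixes all 211 in bleomycin. IMR90 DMSO libraries held 3 to 10, ER:RAS DMSO libraries 12 to 23 and 4OHT libraries 57 to 78.

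At the limits of the rule the values ran on without a gap. With 12 DMSO counts, the last value allowed, there were 9 members, among them ADGRV1 (lowest bleomycin count 19), CADM2 (3), CNTN2 (4), FSTL4 (6) and GRM4 (4). With 13 DMSO counts 14 rows stayed outside, among them ART3 (lowest bleomycin count 7), CA8 (3), CACNA1D (4), CPA5 (3) and FGF13 (3). A lowest bleomycin count of 3 was held by 68 members, for instance BRINP1 with 94 bleomycin counts in all and BRINP2 with 86. A lowest count of 2 kept out 163 silent rows, for instance ACOXL with 52 counts, ADARB2 with 49 and ADCY2 with 63.

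The 2 members with the highest mean level in bleomycin were the chemokine genes CCL20 and CXCL14, CCL20 only with its replicate 4 libraries. CCL20, a chemokine that attracts CCR6-bearing leukocytes (chromosome 2, 227813842 to 227817556), had 0 to 2 counts in each DMSO library. In bleomycin its counts with the control shRNA were 32, 5, 8 and 183 in replicates 1 to 4, with COPB2 shRNA 1 they were 20, 14, 9 and 2041, and with COPB2 shRNA 2 they were 67, 5, 54 and 683. Replicate 4 thus held 93.1% of all its bleomycin counts, against 26.6% of the total counts of those libraries. The order within every shRNA had replicate 4 on top, and the other 9 libraries stayed between 5 and 67 counts.

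CXCL14, a chemokine made by epithelia and stroma (chromosome 5, 135570679 to 135578991), was far steadier, with 43, 60.5 and 108 counts as lowest, median and highest bleomycin value (3.44 ± 0.878 CPM, SD, n = 12). It had at most 1 count in any IMR90 DMSO library and 0 to 4 in each 4OHT library, so its bleomycin libraries lay above all of these. TREM1, a receptor that amplifies inflammation in myeloid cells, had 6, 12 and 129 counts (1.48 ± 1.73 CPM), and SHH, the Sonic hedgehog ligand, had 8, 22.5 and 115 (1.5 ± 1.31 CPM). In both the highest library was COPB2 shRNA 1 replicate 4, and the 3 replicate 4 libraries together held 68.2% of the TREM1 counts and 51.7% of the SHH counts.

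Replicate 4 held over 50% of the bleomycin counts in 6 members: CCL20, TREM1, SLC51B, GRIK1, VNN1 and SHH. The median share over all members was 24.7%, below the 26.6% of total counts that these libraries gave. When the 3 bleomycin replicate 4 libraries were left out, the rule gave 250 genes, including all 211. Leaving out bleomycin libraries only removes conditions of the rule, so no member could be lost by it.

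CST1, the cystatin SN protease inhibitor, had 7, 29.5 and 94 counts in bleomycin (1.64 ± 1.13 CPM), and ATP6V0D2, a subunit of the vacuolar proton pump known from osteoclasts, had 15, 26.5 and 123 (1.92 ± 1.33 CPM). WTAPP1, a transcribed pseudogene on chromosome 11 (102783676 to 102836766), had 8, 39 and 71 counts (1.97 ± 0.851 CPM). WTAPP1 overlaps MMP1, the interstitial collagenase gene, which stood at 4.93 to 13.8 CPM in IMR90 DMSO and 150 to 2320 in bleomycin, and at 37.9 to 70.6 in ER:RAS DMSO and 9110 to 15200 in 4OHT. The setting used to count overlapping genes is not given in the sources used here, so WTAPP1 counts could include MMP1 reads.

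The other 8 of the 15 members with the highest means had even levels and included genes of nerve and muscle. CNTNAP2, a neurexin-family adhesion protein of axons (chromosome 7, 146116801 to 148420998), had 14, 35.5 and 52 counts (1.85 ± 0.484 CPM). CTNNA2, the neuronal alpha-catenin, had 16, 30 and 47 (1.69 ± 0.587 CPM), and NEB, the giant thin-filament protein nebulin of muscle, had 7, 29.5 and 49 (1.51 ± 0.678 CPM). ADGRV1, a very large adhesion receptor of the inner ear and retina, SPTB, the beta-spectrin of red cells, SLC52A1, a riboflavin transporter, HPSE2, a heparanase relative, and TRIML2 had means of 1.25 to 1.61 CPM. Each of these 8 genes had 7 or more counts in every bleomycin library and at most 4 in any DMSO library.

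**Figure D2:**
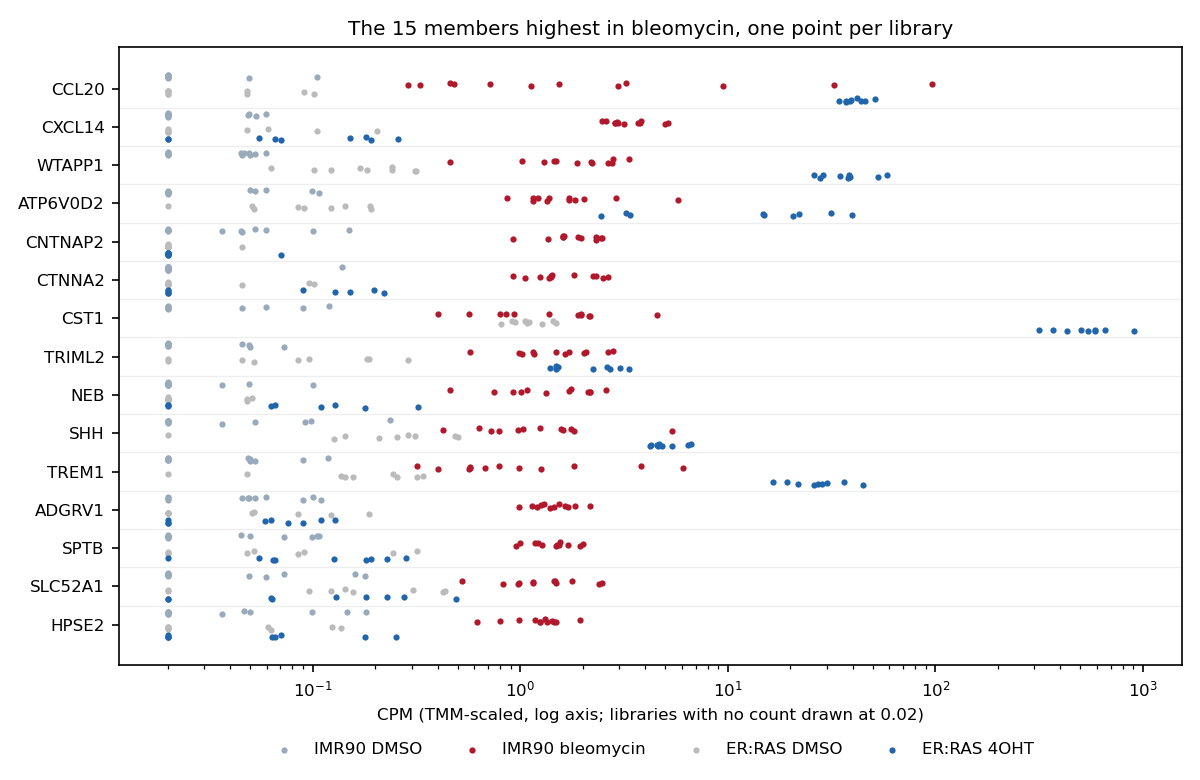
Levels of the 15 members with the highest mean in bleomycin, in CPM on a log axis (horizontal), 1 point per library, coloured by cell line and treatment; libraries with no count are drawn at 0.02. CCL20 ranged widely within bleomycin (5 to 2041 counts), CST1 reached 316 to 903 CPM in 4OHT, and CNTNAP2 had 1 count in all 9 4OHT libraries together.

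The ranking changes when the level is taken per kb of transcript, since long transcripts collect more reads. Per kb, CCL20 led with 14.9 CPM per kb in bleomycin, then WTAPP1 (4.91), CST1 (2.19), LINC01173 (2.11) and CXCL14 (2.04), while CTNNA2 gave 0.431, CNTNAP2 0.195, ADGRV1 0.0750 and NEB 0.0575, beside a median of 0.116 over the members. Without the 3 replicate 4 libraries CCL20 fell to 1.48 CPM per kb, below WTAPP1, LINC01173, CST1, MANCR and CXCL14.

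By gene type the members were almost all protein coding. RefSeq (GRCh38) matched all 211 and gave 197 protein-coding genes (93.4%), 12 long non-coding RNAs (5.69%) and 2 transcribed pseudogenes (0.948%). Rows equally silent in IMR90 DMSO were 42.8% protein coding, 27.7% long non-coding RNAs and 15.8% microRNA genes, and no microRNA or snoRNA row was a member. As a share of the silent rows of each type, 3.93% of coding rows, 0.370% of long non-coding RNAs and 0.305% of transcribed pseudogenes were members. Poly(A) selection removes most small RNAs before sequencing.

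The non-coding members with the highest means were LOC101928143 (8, 19.5 and 42 counts in bleomycin), MANCR (3, 17.5 and 26) and LINC01173 (4, 13 and 27), and the other pseudogene was ANKRD20A12P (5, 13.5 and 20). LINC01164 had 154 bleomycin counts and none in 4OHT. Of these, LOC101928143 and MANCR were also read in every 4OHT library, at 19.7 ± 1.29 and 5.89 ± 1.88 CPM (SD, n = 9).

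The coding members were long genes. Their median genomic span was 136 kb (quartiles 50.5 and 419), against 11.7 kb (3.89 and 34.1) in the other 4822 silent coding rows and 25.7 kb over all 19209 coding rows. More than 100 kb was spanned by 115 of the 197 (58.4%), against 9.29% of the other silent coding rows, and more than 1000 kb by 11, among them CNTNAP2 (2300 kb), PCDH15 (1830 kb), CTNNA2 (1460 kb), DPP6 (1150 kb), CADM2 (1120 kb) and NKAIN2 (1020 kb). Their transcripts were longer as well, with a median of 4.93 kb and 15 exons against 1.97 kb and 5 exons in the other silent rows, while their transcript GC content (48.6%) was close to that of all coding rows (49.0%). The rule asks for counts, and counts grow with transcript length, so part of this length is built into the choice. At the short end lay the keratin-associated protein gene KRTAP1-1 (0.910 kb), CST1 (3.37 kb), CCL20 (3.71 kb) and CXCR4 (3.8 kb).

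Whether silent genes of long span stood out was therefore read in coding rows with at most 9 counts over the 9 ER:RAS DMSO libraries, a choice that used no IMR90 library. Of these 5119 rows, members included, 3950 (77.2%) had more counts in bleomycin than in IMR90 DMSO and 218 (4.26%) fewer. Leaving out the 158 members among them removes rows by their IMR90 counts. Of the remaining 4961 rows, 3792 had more counts in bleomycin than in IMR90 DMSO, 218 had fewer and 951 had equal counts. The median row had 9 counts over the 12 bleomycin libraries and 0 over the 12 DMSO libraries. Under 10 kb of span 65.0% of rows had more counts in bleomycin and 5.18% fewer, between 50 and 200 kb 88.1% and 3.72%, and over 500 kb 96.8% and 1.61% (62 rows). The sums over the 141 rows of 200 to 500 kb were 408 to 857 counts in the bleomycin libraries and 35 to 89 in the DMSO libraries, with no overlap.

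A gradient with span was also seen within classes of transcript length. Among rows silent in ER:RAS DMSO with transcripts of 2 to 4 kb, members included, the median was 4.12 bleomycin counts per kb of transcript for 1217 rows spanning under 50 kb, 9.39 for 329 rows of 50 to 200 kb and 21.4 for 76 rows over 200 kb. With transcripts over 4 kb the medians were 2.53, 6.25 and 11.3 counts per kb. The matching DMSO medians also rose with span in the first class, at 0, 0.274 and 0.575 counts per kb. With transcripts over 4 kb they were 0.161, 0.375 and 0.28. Olfactory receptor genes, which are short and silent outside the nose, gave no member. Their 378 silent rows summed to 33 to 85 counts per bleomycin library and 5 to 15 per DMSO library.

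The same reading in the other direction gave smaller differences. Of the 4822 coding rows silent in IMR90 DMSO that were no members, 1321 had more counts in 4OHT than in ER:RAS DMSO, 841 had fewer and 2660 had equal counts, and the median was 0 in both. The share with more counts in 4OHT was 20.5% under 10 kb and 61.8% over 500 kb (55 rows), and the share with fewer was 13.8% and 18.2%. Both readings start from rows that were low in a DMSO group, and the cell lines differ, so bleomycin and the line cannot be told apart in setting one beside the other.

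**Figure D3:**
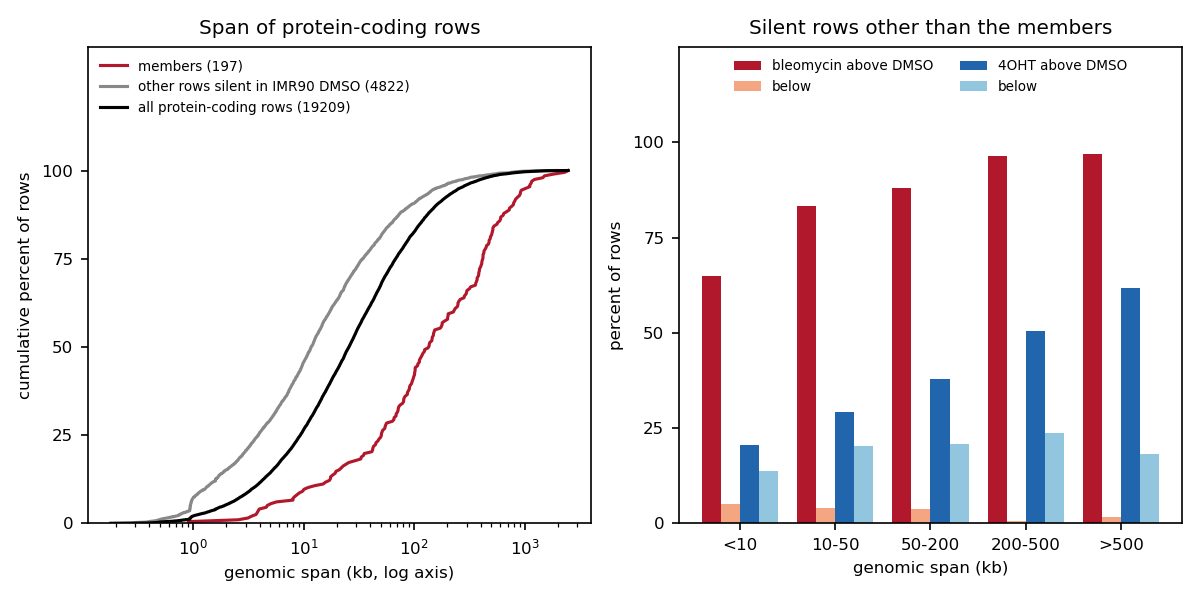
Left, cumulative percent of protein-coding rows (vertical) by genomic span in kb on a log axis (horizontal), for the 197 coding members, the 4822 other silent coding rows and all 19209. Right, percent of silent rows other than the members (vertical) whose summed counts were above or below DMSO, by span class in kb, for bleomycin in IMR90 (rows silent in ER:RAS DMSO) and for 4OHT in ER:RAS (rows silent in IMR90 DMSO); the bleomycin bars go from 65.0% to 96.8% above.

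The members lay on every chromosome but Y. Chromosome 2 held 23, chromosome 1 held 19, and chromosomes 3, 6 and 7 held 16 each. Against the silent coding rows of each chromosome, members made up 7.89% on chromosome 2 and 7.60% on chromosome 10, and 0.307% on chromosome 19 and 1.48% on X. Neighbouring members numbered 14, and the number that random placement would give was not worked out. Along the coding rows there were 7 runs, each of 2 members: CALCA and CALCB, the calcitonin and CGRP genes, PTPRR and TSPAN8, NOS1 and KSR2, CXCR4 and THSD7B, ATP2B2 and SLC6A11, TRDN and NKAIN2, and the GABA receptor genes GABRA3 and GABRQ.

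Of the 7 pairs, 2 held a gene with 3 or more counts in every 4OHT library beside one with no 4OHT count. CXCR4, the receptor of CXCL12, had 115 to 220 counts in each 4OHT library, and the adjoining THSD7B had none. GABRQ had 5 to 77 counts, and GABRA3 had none. Of the 211 members, 71 overlapped another row of the table and 15 overlapped a row with a higher level in bleomycin, such as NEB, SPTB, CDH23 and CCR9. Of 162 members with a known strand and an upstream row on it, 6 had that row end within 10 kb. Like numbers for other silent rows are not given here, so the overlaps and distances are a description of the members alone.

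Promoter windows were at hand for 156 coding members. Of these, 45.5% were rich in CpG (an observed to expected ratio of at least 0.6 and 50% GC), against 25.1% of the other silent coding promoters and 64.4% of all 15363. The TATA box TATAAA was in 16.7% of member windows, 19.9% of the other silent ones and 9.54% of all. The AP-1 motif TGACTCA was in 5.77%, 5.31% and 3.66%, including the windows of CXCL14 and SGPP2 printed above, where it starts 92 and 63 bases before the gene start, and that of TRIML2. The CRE motif TGACGTCA was in 0.641%, 1.12% and 2.62%, the E-box CACGTG in 3.21%, 6.43% and 8.97%, and CCAAT in 28.8%, 38.3% and 36.6%. The NF-kB sequence GGAATTTCC and a p53 site with no spacer were in no member window, and they were in 0.410% and 0.00651% of all windows. Sequences this rare would hardly be met in 156 windows, and other forms of these sites were not searched. Their absence therefore does not show that member promoters lack NF-kB or p53 sites. All motifs were searched on both strands, and overlaps between them were not removed. CNTNAP2 has 16 CG dinucleotides in its window and CTNNA2 has 3.

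Gene lists of known function show where the members fall. Of 168 genes for ion channels, transmitter receptors and the synapse, 90 were silent and 17 of those (18.9%) were members, against 3.93% of silent coding rows. They include the glutamate receptors GRIK1, GRM4 and GRM8, the dopamine receptor DRD2, the adrenergic receptor ADRA2A, the serotonin transporter SLC6A4, the channels CACNA1E and KCNH6, and the synaptic proteins CNTNAP5, SV2B and UNC13C. Their silent rows had a median span of 80.2 kb, against 12.4 kb for silent coding rows. Of the 90, 88 had more counts in bleomycin than in DMSO. Over all silent coding rows this held for 3918 of 5019. Both sets were chosen for low DMSO counts, which favours more counts in bleomycin.

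Within that list CNTNAP2 stood highest. Lower in the list were ADRA2A, with a bleomycin mean of 0.786 CPM (7 to 24 counts), and GRM4, with 0.333 CPM (4 to 11 counts), and GRIK1 (4 to 26 counts) and KCNH6 (3 to 18) had the widest relative spread, with a coefficient of variation of 0.658 and 0.642. KCNH6, DRD2 and GABRQ were also read in every 4OHT library.

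Among cadherins and protocadherins, the cell adhesion family, 23 of 61 were silent and 5 were members: PCDH15 (6 to 23 bleomycin counts), PCDH17 (4 to 30), CDH8 (4 to 14), CDH23 (12 to 23) and CDH1, the epithelial cadherin (4 to 18). None of these 5 was read in every 4OHT library. Their highest 4OHT count was 3.

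Immune genes gave 5 members. Of 43 silent genes for interleukin, chemokine and innate immune receptors, 3 were members (6.98%): CCR9, a homing receptor of gut lymphocytes (4 to 13 bleomycin counts), CXCR4 (4 to 19) and TREM1. All 43 had more counts in bleomycin than in DMSO. Their medians were 21 and 0, beside 9 and 0 over all silent coding rows. Silent rows of every list were chosen for low DMSO counts, which favours more counts in bleomycin, so these comparisons are a description. Of 37 silent secreted inflammatory factors, 2 were members (5.41%), CCL20 and CXCL14. None of 6 silent p53 targets and none of 8 silent interferon response genes was a member, although 6 of each had more counts in bleomycin. Among keratins and epidermal barrier genes 2 of 80 silent rows were members, TGM3 and TCHH, and among cancer-testis and germ cell genes 1 of 70, TEX11. The last list had 52 of 70 with more counts in bleomycin, which is close to the share over all silent coding rows.

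Markers of other cell types were looked at, since members such as CDH1 and PECAM1 define epithelium and endothelium. CDH1 is 1 of 9 epithelial markers and PECAM1 1 of 6 endothelial ones, and no leukocyte, neuron and glia, muscle or germ cell marker was a member. Epithelial markers summed to 75.8 to 187 CPM in IMR90 DMSO and 69.5 to 334 in bleomycin, which overlap. Endothelial markers summed to 23.9 to 36.1 and 7.76 to 34.7 CPM, muscle markers to 26.6 to 40.4 and 1.21 to 7.95, neuron and glia markers to 152 to 333 and 136 to 528, and germ cell markers to 0.0365 to 0.235 and 0.437 to 1.60. Most counts in the epithelial, endothelial and neuron and glia sums came from abundant genes. Over the 12 DMSO and 12 bleomycin libraries KRT18 had 16291 and 21698 counts, TEK 6366 and 2812, and TUBB3 50201 and 59973. Scarcer markers are hidden in such sums: CDH5 had 1 and 48 counts, CLDN5 20 and 109, and RBFOX3 4 and 85. Others fell, such as VWF with 824 and 344 and S100B with 19 and 11. Leukocyte markers summed to 12.7 to 29.6 in DMSO and 55.6 to 106 in bleomycin, which do not overlap, and CD68, a lysosomal protein of many cells, had 17079 counts over the 12 bleomycin libraries and 4856 over the 12 DMSO libraries. PTPRC, which defines leukocytes, had 208 counts over the 12 bleomycin libraries and 8 over the 12 DMSO libraries, and the T cell gene CD3E had 49 and 0. In bleomycin 1 marker, MYOG, had no count in any library. The part of other cells in the members' counts was not tested, and in bulk RNA fewer cells of a type and less RNA per cell cannot be told apart.

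The ER:RAS libraries took no part in the choice of members and so can be tested. At least 3 counts in every one of the 9 4OHT libraries were held by 36 of the 211 members (17.1%), by 1.28% of the other 11506 silent rows and by 46.4% of all rows. Members were 93.4% protein coding and all silent rows 42.8%, and coding members had longer transcripts. These shares therefore do not set like beside like, here and wherever members are set beside other silent rows below. At the other end 21 members had no 4OHT count, and 112 had at most 9 counts over the 9 libraries, which is the level at which ER:RAS DMSO rows were called silent. In ER:RAS DMSO 167 of 211 were silent by that measure, and CST1 was the one member with 3 or more counts in each DMSO library.

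Of 14297 rows that passed the filter on low counts, 25.4% were called higher in 4OHT than in DMSO (edgeR quasi-likelihood test, adjusted p under 0.05). Only 39 members passed the filter, most of them only because their 4OHT libraries had enough counts, so that all 39 were called higher says nothing on its own. With no filter 200 members could be tested, 74 were called higher (37.0%) and 1 lower (FSTL4, 23 counts over the 9 DMSO libraries and 3 over the 9 4OHT libraries). In the same fit 20% of all 21212 rows were called higher and 23.7% lower, and of the 4465 other silent rows that could be tested 11.4% and 0.829%. All 9 4OHT libraries lay above all 9 DMSO libraries in CPM for 45 members (21.3%). That was so for 9.28% of all rows with a count in ER:RAS and 4.37% of the 4465 other silent rows with such a count. The members' share was taken over all 211, of which 200 had a count in ER:RAS.

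The members that led in 4OHT reached levels far above those in bleomycin. CST1 had 13 to 31 counts in each ER:RAS DMSO library and 5341 to 10320 in each 4OHT library, 544 ± 175 CPM (SD, n = 9), a log2 fold change of 8.80 ± 0.22 (SE; edgeR adjusted p = 1.34e-13). TREM1 had 0 to 5 counts in DMSO and 262, 395 and 567 as lowest, median and highest in 4OHT, with a log2 fold change of 7.20 ± 0.36 (edgeR adjusted p = 1.74e-10). KCNH6, a voltage-gated potassium channel, had 0 to 5 and 171 to 359 counts (7.14 ± 0.45, edgeR adjusted p = 2.08e-09). In each of the 3 the 9 4OHT libraries lay above the 9 DMSO libraries, and so they did for SHH, with 0 to 11 counts in DMSO and 60 to 105 in 4OHT.

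WTAPP1 had 1 to 6 and 402 to 767 counts (log2 fold change 7.5 ± 0.27, edgeR adjusted p = 4.28e-12), with the reservation on MMP1 made above. LOC101928143, a long non-coding RNA of unknown role, had at most 7 counts in DMSO and 220 to 371 in 4OHT (6.85 ± 0.35, edgeR adjusted p = 1.92e-10). For genes whose DMSO libraries all had 3 counts or fewer, the mean 4OHT level was set against the floor of 3 counts per DMSO library. By that bound CCL20 (437 to 722 counts in 4OHT) was at least 239-fold higher, MRGPRX3, a receptor of sensory neurons (145 to 450), at least 123-fold, PIK3R5, a regulatory subunit of PI3-kinase gamma (36 to 107), at least 23.8-fold, and LINC00520 (22 to 73) at least 16.5-fold.

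CCL20 was uneven in bleomycin and even in 4OHT, where its 9 libraries ran from 34.4 to 51.5 CPM (41.1 ± 5.28, SD). Its highest bleomycin library, COPB2 shRNA 1 replicate 4, reached 95.9 CPM, above all 4OHT libraries, and the other 11 lay below them. A mean of at least 10 CPM in 4OHT was held by 8 members, namely CST1, CCL20, WTAPP1, TREM1, MRGPRX3, LOC101928143, KCNH6 and ATP6V0D2, while CCL20 alone did in bleomycin, at 12.4 CPM. Without COPB2 shRNA 1 replicate 4 its bleomycin mean was 4.82 CPM, and without the 3 replicate 4 libraries it was 1.24 CPM, so that no member then reached 10 CPM.

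**Figure D4:**
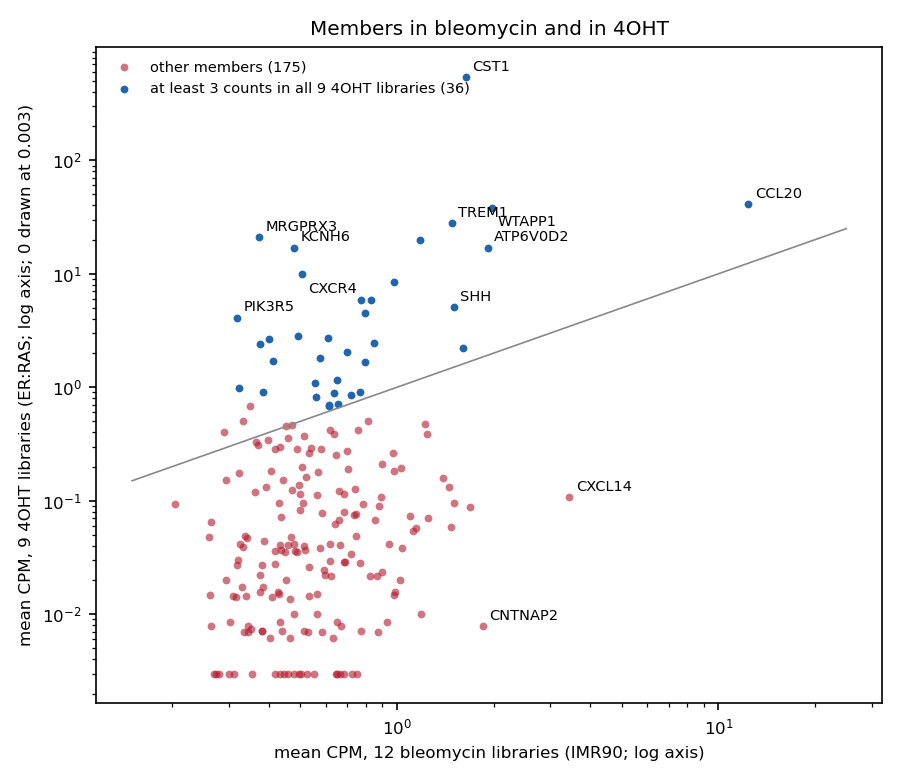
Mean CPM of each of the 211 members over the 12 bleomycin libraries (horizontal, log axis) and over the 9 4OHT libraries (vertical, log axis, members with no count drawn at 0.003); the line marks equal levels and blue marks the 36 members with 3 or more counts in every 4OHT library. Above the line lie 40 members, led by CST1 at 544 CPM in 4OHT, and CNTNAP2 and CXCL14 lie far below it.

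The rule asks for counts in every bleomycin library, so a lower level in 4OHT than in bleomycin is favoured by the choice, and cell line and treatment cannot be told apart in that comparison. The values are a description. CNTNAP2 had 1 count in the 9 4OHT libraries together, CTNNA2 had 12 and NEB had 14. The 5 members highest in bleomycin among those with no 4OHT count were GABRA3 (7, 14.5 and 24 bleomycin counts), the bicarbonate transporter SLC4A10 (3, 15 and 21), LINC01164 (5, 11 and 26), the potassium channel subunit DPP6 (7, 12 and 23) and DPYSL5, a protein of axon growth (7, 12 and 18). A count of 0 allows up to 0.165 to 0.271 CPM in a 4OHT library, depending on its total.

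The members read in every 4OHT library had a lower median span than the rest, and the spans overlapped widely. The 30 coding ones spanned a median of 61.0 kb (quartiles 17.7 and 132), and the other 167 a median of 153 kb (64.6 and 424). More than 100 kb was spanned by 10 of the 30 and 105 of the 167, more than 500 kb by 3 and 34, and more than 1000 kb by 0 and 11. Applying the like rule to ER:RAS, at most 9 counts over the 9 DMSO libraries and at least 3 in each of the 9 4OHT libraries, gave 159 rows. These shared 14 genes with the members, 6.64% of the members and 8.81% of the ER:RAS rows, and the 126 coding ones had a median span of 16 kb.

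COPB2 knockdown was tested within each senescent state. In bleomycin none of the 146 members that passed the filter was called with either shRNA (edgeR adjusted p under 0.05), beside 1 of 14783 rows (0.00676%) with shRNA 1 and 11 (0.0744%) with shRNA 2. With no adjustment 5 and 3 of the 146 members had p under 0.05, beside 208 and 997 of all 14783 rows. With the replicate number as a block these numbers were 6 and 11 members, beside 464 and 1744 rows. The Wald test of DESeq2 also called none. The members' median log2 fold change was 0.03 with shRNA 1 and -0.05 with shRNA 2, beside 0.01 over all rows with each. CDH1 had log2 fold changes of -1.13 ± 0.48 and -0.85 ± 0.47 (SE; edgeR adjusted p = 1.00 and 0.749).

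In 4OHT 1 of the 39 members tested was called with each shRNA, ATP6V0D2 in both, beside 0.140% of 14297 rows with shRNA 1 and 0.224% with shRNA 2. Its 4OHT counts in replicates 1 to 3 were 27, 51 and 51 with the control shRNA, 211, 322 and 532 with COPB2 shRNA 1, and 195, 345 and 720 with COPB2 shRNA 2, with no overlap between control and knockdown. The levels were 3.01 ± 0.503, 22.3 ± 8.45 and 25.5 ± 12.7 CPM (SD, n = 3 each), and the log2 fold changes were 2.89 ± 0.48 and 3.08 ± 0.48 (SE; edgeR adjusted p = 0.0189 and 0.00867). The call with shRNA 1 was lost without control replicate 1 (adjusted p = 0.0768), control replicate 2 (0.125), control replicate 3 (0.0896) or COPB2 shRNA 1 replicate 3 (0.0868), and that with shRNA 2 without control replicate 2 (0.0594). Both comparisons share the control libraries. In bleomycin the control libraries stood at 1.22 ± 0.356 CPM for this gene, those of shRNA 1 at 2.43 ± 2.23 and those of shRNA 2 at 2.12 ± 0.536 (SD, n = 4 each; log2 fold changes of 1.02 ± 0.47 and 0.81 ± 0.47, edgeR adjusted p = 1.00 and 0.759), and 1 library, shRNA 1 replicate 4 with 123 counts, lay far above the rest. Between 4OHT and DMSO its log2 fold change was 6.76 ± 0.37 over the 3 shRNAs and 4.42 ± 0.59 with the control shRNA alone (edgeR adjusted p = 3.76e-10 and 3.19e-05).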

How the data were processed

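Poly(A) RNA of 42 libraries was analysed, each placed in 1 of 12 groups by its label. The authors deposited raw counts of reads, 1 row per gene symbol and 1 column per library, not normalized. The study's methods name single-end directional libraries aligned to hg19 with Tophat and an Ensembl annotation, whereas the submitters' processing notes name hg38, DRAGEN, STAR 2.7.8a and DESeq2 1.32.0. Row symbols and their order followed GRCh38, so gene type and coordinates came from RefSeq on GRCh38, which matched 27621 of 28266 rows and all 211 members. Transcript length, exon number and GC content came from GENCODE canonical transcripts and were found for 205 members. Promoters were found for 163 members.

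CPM used library totals scaled by TMM factors, times 1e6. Tests used edgeR 4.0.16 (quasi-likelihood, robust, two-sided) in R 4.3.3 with filterByExpr, 1 fit per cell line, and Benjamini-Hochberg adjustment over all rows tested. Calls were made at an adjusted p under 0.05. The script was tested on simulated data. Totals ran from 13148194 to 23597310 counts per library. Without molecular identifiers, a floor covers counting error alone.

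Members, gene lists, markers and motifs were chosen with earlier results of these data known. The markers KRT18, TEK, TUBB3, CDH5, CLDN5, RBFOX3, VWF and S100B were named after their values were seen. Named are the 15 members highest in bleomycin, the 10 called members with the largest fold change and no overlap between libraries in 4OHT, members called with a COPB2 shRNA, members of a list or marker set, neighbours, the 5 nearest each limit, the 5 highest with no 4OHT count and the 3 highest of each non-coding type; other genes, such as ESR1, MMP1, SGPP2, KRTAP1-1, SLC51B and VNN1 and the markers PTPRC, CD3E, CD68 and MYOG, were named after their values were seen.

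Same-numbered bleomycin libraries deviated together in all 4 pairs with each shRNA (correlations of 0.404 to 0.758), so the numbers pair the samples in the knockdown comparisons in bleomycin. In ER:RAS not all pairs did. Alternatives were other limits of the rule, scaled counts, DESeq2 size factors, no filter, the Wald test of DESeq2 1.42.0, the control shRNA alone, all 42 libraries in 1 fit, the replicate number as a block, and leaving out each library. Some members are not reported by name here.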

Additional observations from a re-analysis of the deposited data

Results flagged for a closer look

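A library standing apart from the other 3 of its group by Dixon's rule was found in 9 of 48 groups of 4 bleomycin libraries examined (the 15 highest members and the members' sum, in each of 3 shRNA groups). Chance alone flags about 1 in 20 independent groups, but these groups share libraries and the members were picked for high bleomycin means, which favours high libraries, so that rate is no measure of these 9. All 9 were replicate 4. CCL20 reached 9.49 CPM with the control shRNA (others 0.287 to 1.53), 95.9 with COPB2 shRNA 1 (others 0.478 to 1.13) and 32.5 with COPB2 shRNA 2 (others 0.329 to 3.25). TREM1 reached 1.81 CPM (others 0.402 to 0.574), 6.06 (others 0.319 to 0.676) and 3.8 (others 0.788 to 1.26) in the same order. With COPB2 shRNA 1, ATP6V0D2 reached 5.78 CPM (others 1.22 to 1.38) and SHH 5.40 (others 0.425 to 0.974). The members' summed level in that library was 251 CPM (others 122 to 142), and 155 CPM without CCL20, where the other 3 had 121 to 141.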

How the results depend on the processing

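The number of members was 139 with at most 6 DMSO counts and 90 with at least 5 counts in each bleomycin library, and 207 to 250 without 1 library or without the replicate 4 libraries. With at most 24 DMSO counts, at least 2 bleomycin counts or the control shRNA libraries alone, 336, 374 and 494 rows met the limits before the cap of 300. Members called in 4OHT numbered 39, but 75 with no filter and 71 in the fit of all 42 libraries, because more members are then tested, and 41 to 43 without 1 library. Members called with COPB2 shRNA 1 or shRNA 2 in 4OHT numbered 1, and 0 to 1 without 1 library; in bleomycin they numbered 0 to 0 under each alternative run. With the replicate block, members called were 39 in 4OHT against DMSO, 1 and 1 with the shRNAs in 4OHT and 0 and 0 in bleomycin, so that it changed no call, while calls over all rows went from 8398 to 10217, from 20 to 44, from 32 to 76, from 1 to 3 and from 11 to 28. By the Wald test of DESeq2 the same knockdown counts over all rows were 50, 70, 1 and 36, and with no filter the last was 6. The median log2 fold change of all rows, 4OHT against DMSO, was -0.09 with TMM and 0.02 with DESeq2 size factors. No count changed direction. Nor did the log2 fold change of the 10 members named for 4OHT against DMSO, or of ATP6V0D2 with a COPB2 shRNA in 4OHT. Other members were not put through this. With shRNA 1 in bleomycin, the median of all rows went from 0.01 to -0.03 without COPB2 shRNA 1 replicate 2. The members' median went from 0.03 to -0.01 without COPB2 shRNA 1 replicate 4. Settings added after seeing the data left out replicate 4 for CCL20, whose bleomycin mean was 12.4 CPM, 4.82 without COPB2 shRNA 1 replicate 4 and 1.24 without the 3 replicate 4 libraries. Of the alternative values for counts and shares, 109 stayed within 1.5 times the reported count or within the 95% interval of the share and 9 did not. The number of members was judged after the cap of 300, which lies within 1.5 times the reported number. Settings that met the cap were therefore bound to be counted as staying. Members sit near the floor of 3 counts, so the membership of a single gene moves with depth.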
